A study of Homo sapiens with 8 samples.

Results

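The MYC and PVT1 locus is a gene-poor stretch of chromosome 8 with MYC near its middle and the long non-coding RNA gene PVT1 just downstream. It was followed as every distinct accessible region that lay wholly within chr8:126700000-129000000 (hg38), a window of 2.3 Mb. The 8 region lists held 2412 such regions of 1440417 in all, and the regions of a single list numbered 248 to 384. Joining regions of different lists that shared at least 1 base gave 986 sites in the window of 548046 in the genome, of which 96 were found in all 8 lists. The window overlaps 29 genes of the GENCODE 44 annotation, and only MYC and POU5F1B among them code for protein.

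MYC encodes a transcription factor that drives ribosome production, metabolism and entry into the cell cycle, and it is among the genes most often amplified or overexpressed in human tumours. Its transcription is controlled by enhancers spread over the surrounding gene desert, many of which lie within non-coding RNA genes such as PCAT1, CASC8 and CCDC26 and act in some tissues but not in others. PVT1 is itself rich in enhancers, its promoter is known to compete with the MYC promoter for them, it is the host of several microRNAs, and the tumour suppressor p53 is known to induce it after DNA damage.

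ATAC-seq, in which a transposase inserts sequencing adapters into open chromatin, had been carried out in U2OS, a human osteosarcoma cell line. Wild-type (WT) cells and ASH1L-/- cells, which lack a histone methyltransferase after CRISPR/Cas9 deletions in its coding exons, were each left unchallenged (no UV) or collected 3 h after UV-C irradiation at 20 J/m2. There were 2 biological replicates for each of the 4 groups, and the knockout cells had been grown from isolated colonies, so a difference between genotypes cannot be told apart from a difference between clones. All 8 cultures, the unchallenged WT cells included, otherwise shared the same parental line, medium and nuclear preparation.

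Each list gives for every region a fold enrichment, which is the pileup of reads at its summit plus 1 over the local background plus 1. Because the lists differed in depth (a genome-wide background pileup of 1.39 to 5.87) and in median fold enrichment (2.57 to 5.06), a region was described mainly by its percentile, the share of regions in the same list with a fold enrichment at or below its own. Pileup over depth, the summit pileup recovered from the fold enrichment and p-value and divided by that genome-wide background, was used as a second scale. The background of 5.87 was that of replicate 1 of ASH1L-/- no UV, and the other libraries had 1.39 to 2.81. Comparisons of pileup over depth were not repeated without that library. The promoter of ASH1L held a region in all 8 lists, at percentiles of 81.1 to 97.6, and since the deletions lie elsewhere in the gene this does not test the knockout. Regions were found at the promoters of the osteoblast and mesenchymal genes RUNX2 and COL1A1 in 8 lists, COL1A2 in 7 and TWIST1 in 2. Among genes of other lineages CD3E had a region in 0 lists and PTPRC and ALB in 1 each, whereas EPCAM and CDH1 had one in all 8, so promoter accessibility alone did not set U2OS apart from epithelial cells.

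Accessible regions were dense across the locus. The window held 108 to 167 regions per Mb, which was 2.21 ± 0.174 times the density of the genome (SD, n = 8) and 1.83 ± 0.124 times that of chromosome 8, and it was above both in every list. Most of these regions were weak: their median percentile lay between 34.9 and 46.7, and 19.7% to 23.8% of them reached the top quartile of their list, against 25% by definition for a whole list. The local background under the regions was raised as well, with a median of 1.42 to 1.66 times the depth in the window against 1.08 to 1.27 times over all regions. In each library the window exceeded the genome in this measure. Copy number was not measured in these files, so more DNA and more accessible DNA cannot be told apart here.

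The share of all regions that fell in the locus did not differ detectably with UV or genotype. In WT cells it was 1.68 and 1.49 regions per 1000 without UV and 1.73 and 1.49 after UV. In ASH1L-/- cells it was 1.74 and 1.84 without UV and 1.81 and 1.64 after UV. All UV and all no UV libraries overlapped, as did all ASH1L-/- and all WT libraries, although without UV both ASH1L-/- libraries were above both WT libraries. The log2 difference between UV and no UV was -0.02 (p = 0.8) and that between ASH1L-/- and WT was 0.14 (p = 0.114, 2-sided exact permutation tests over the 8 libraries). The UV differences of the genotypes did not separate either (p = 0.657, exact permutation test).

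The sites shared by all lists were spread over the locus. PVT1 with its promoter held 25 such sites of 147 (17.0%), with a median percentile of 84.5, and 19 of them had a mean percentile above 75. The longer stretch upstream of MYC, which covers PCAT1, PRNCR1, CASC19, CASC8 and POU5F1B, held 33 shared sites of 470 (7.02%) at a median percentile of 68.9. Downstream of PVT1, where CCDC26 and LINC00824 lie, 35 of 344 sites (10.2%) were shared and their median was 81.2. The short segments around MYC held the other 3, 1 of 6 sites in MYC with its promoter and 2 of 19 between MYC and PVT1, the latter with a median of 88.6. These shares are a description and were not tested. Over the whole window the median percentile of the shared sites was 78.0, against 80.4 for the 60323 shared sites of the genome, and 7.29% of them had a mean above 95, against 11.1%.

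**Figure D1:**
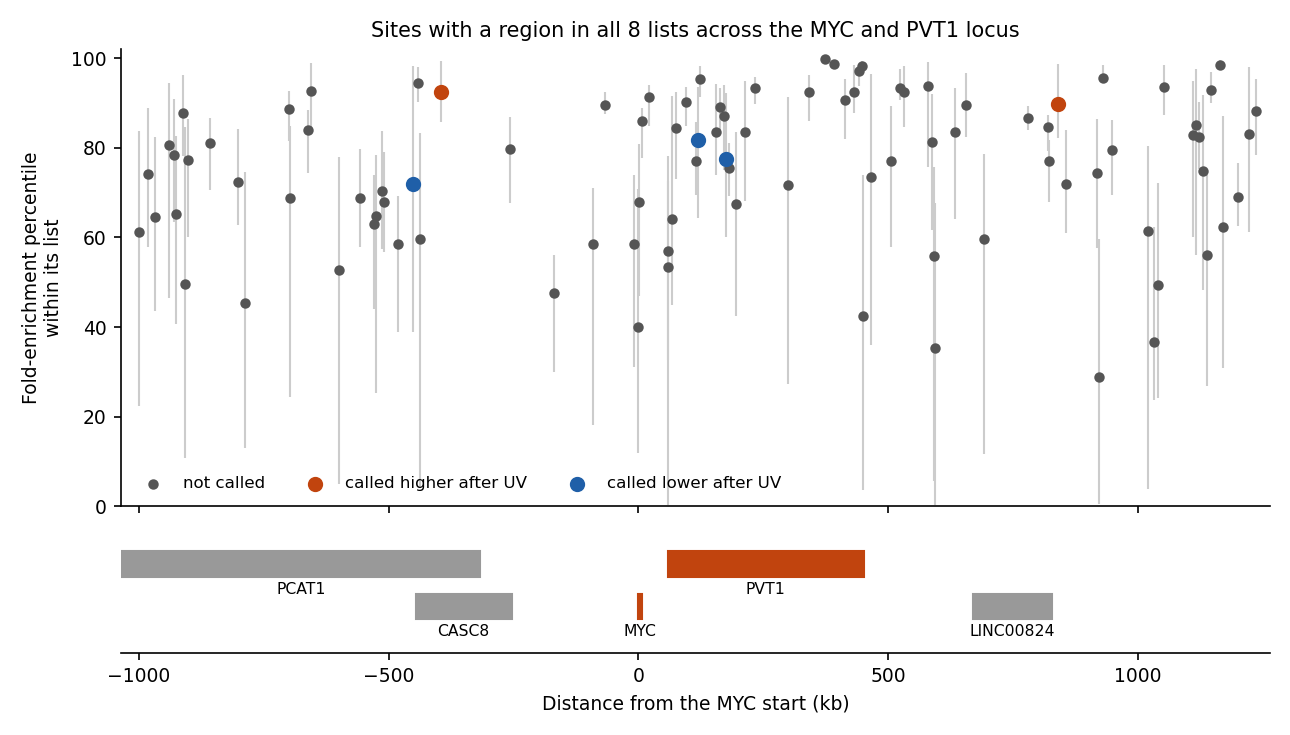
Mean fold-enrichment percentile (points, y axis) of the 96 sites with a region in all 8 lists, by distance from the MYC start in kb (x axis), with grey lines from the lowest to the highest library and bars for 5 genes, PCAT1 being cut at the window edge. The highest points lie inside and downstream of PVT1, and the 5 sites called with UV are spread over both sides of MYC.

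Sites more than 1 kb from the starts of MYC and from the start of PVT1 are called distal here, whether or not they lie at a start of another transcript. In all, 22 of the 96 shared sites lay within 1 kb of an annotated transcript start. The 10 distal shared sites with the highest mean percentile averaged 93.5 to 99.7, 9 of them away from any annotated start, and 5 of them lay in PVT1, 4 downstream of it and 1 upstream of MYC. The leading site, 374 kb downstream of the MYC start in a PVT1 intron (chr8:128108809-128109566), had percentiles of 99.6 and 99.7 in WT no UV, 99.7 and 99.9 in WT UV, 99.7 and 99.7 in ASH1L-/- no UV, and 99.8 and 99.8 in ASH1L-/- UV, with fold enrichments of 17.0 to 25.5. It was near the top of every list, and its percentiles spanned less than 1 point. The site 392 kb downstream, also in a PVT1 intron (chr8:128127379-128128327), followed at 98.1 to 99.7. A pair of PVT1 intron sites near the 3' end of the gene lay 441 kb (chr8:128176426-128177435) and 448 kb (chr8:128182963-128183694) from the MYC start, at 93.7 to 98.6 and 96.5 to 99.3.

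The remaining members of this group differed in how even they were across libraries. A site at an internal annotated start of PVT1, overlapping an exon 125 kb from the MYC start (chr8:127859635-127860385), ranged from 91.4 to 98.3. The strongest site upstream of MYC, 440 kb away in introns of PCAT1 and CASC8 (chr8:127294230-127295525), ranged from 90.1 to 98.1. In CCDC26, a long non-coding RNA gene, 3 sites lay 931 kb, 1052 kb and 1165 kb from the MYC start. They ranged from 94.5 to 98.4, from 87.3 to 98.4 and from 97.3 to 99.5. The intergenic site at 579 kb had 75.8 in replicate 1 of WT UV and at least 93.6 in each of the other libraries. None of the 10 was called with UV or genotype on percentiles by the model described below for the 96 shared sites. On log2 pileup over depth 2 of them were called higher after UV, while 9063 of the 60323 shared sites of the genome were. The 2 were the site at 1052 kb, by 1.23 (adjusted p = 0.0122, limma), and the one at 125 kb, by 1.06 (adjusted p = 0.0276, limma). The median difference over all shared sites was 0.48.

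**Figure D2:**
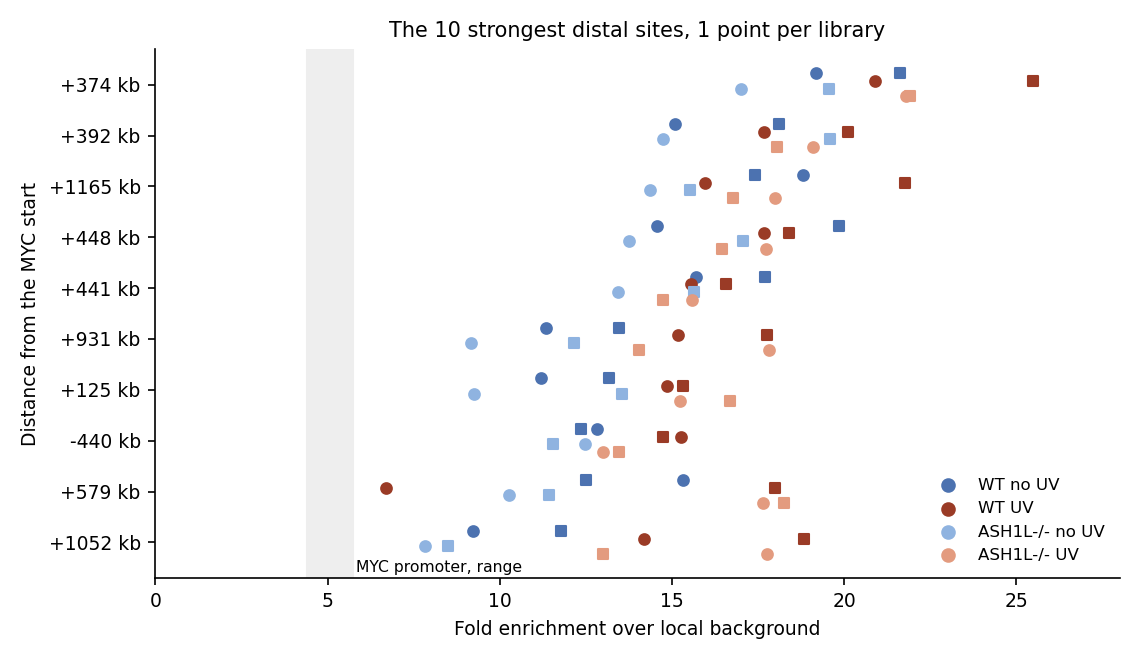
Fold enrichment over local background (x axis) in each of the 8 libraries (circles, replicate 1; squares, replicate 2) for the 10 strongest distal sites, ordered by mean percentile and named by distance from the MYC start (y axis). All points lie above the grey band, which spans the MYC promoter in the 8 libraries (4.42 to 5.74), and the 374 kb site reaches 25.5.

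The MYC promoter was open in every library but did not rank high by fold enrichment. A region over the start of MYC (chr8:127735434-127742951, plus strand) was found in all 8 lists, and the strongest region of the promoter had its main summit 642 to 863 bases downstream of the start. In 7 lists a single region of 1319 to 1452 bases covered both. In replicate 2 of WT UV the promoter was split into a region over the start (chr8:127735081-127735590, percentile 38.6) and a stronger one of 866 bases that began past the start (chr8:127735672-127736537), whose value is used below. The percentiles were 71.6 and 71.8 in WT no UV, 67.2 and 46.9 in WT UV, 80.9 and 75.3 in ASH1L-/- no UV, and 64.1 and 65.9 in ASH1L-/- UV. All 4 unchallenged libraries were above all 4 UV libraries. Of the 14993 to 15815 protein-coding genes with a promoter region in a list, 10.3% to 29.4% were at or below MYC, and 67 of the 93 distal shared sites of the locus had a higher mean percentile than the MYC promoter.

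On the scale of pileup the same promoter stood near the top. Its pileup over depth was 51.9 and 51.2 in WT no UV, 56.1 and 81.2 in WT UV, 26.9 and 54.7 in ASH1L-/- no UV, and 56.0 and 57.9 in ASH1L-/- UV. Ranked by that quantity it lay between percentiles 94.8 and 96.9 of its lists. The local background that divides the fold enrichment was 5.96 to 17.2 times the depth at MYC, so a high pileup stood over a high background there.

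The UV comparison at the MYC promoter depended on the scale. The percentile averaged 74.9 ± 4.32 without UV and 61.0 ± 9.52 after UV (SD, n = 4 each), and fell by 13.9 points (p = 0.0286, 2-sided exact permutation test, the smallest p that 4 libraries against 4 allow). Over the 9 such tests made at the locus the Benjamini-Hochberg adjusted value was 0.257, and in limma over the 60323 shared sites the adjusted p was 0.206. With 7 libraries the exact permutation p was 0.0571 to 0.0952 without either WT no UV library, either ASH1L-/- UV library or replicate 1 of ASH1L-/- no UV. Percentiles separated in this direction at 12.3% of all shared sites. The fold enrichment itself was 4.96 ± 0.620 without UV and 5.01 ± 0.289 after UV, and the pileup over depth was 46.2 ± 12.9 and 62.8 ± 12.3, with all 4 UV libraries above all 4 unchallenged ones (p = 0.0286, the smallest possible, exact permutation test). The latter difference, 0.48 on the log2 scale, was the size of the median difference over all shared sites, 0.48. In percentile the UV difference was -14.7 in WT and -13.1 in ASH1L-/- cells (p = 0.971 for the difference of these, exact permutation test), and ASH1L-/- and WT libraries overlapped, with means of 71.6 ± 7.93 and 64.4 ± 11.9 (p = 0.371, exact permutation test).

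Just upstream of the MYC promoter lay a weaker shared site, 1.25 kb before the start in an intron of the antisense gene CASC11 (chr8:127733943-127734403), described here after its values were seen because it holds the locus's only match, among the shared sites, to the motif of CTCF, the factor that insulates chromatin domains. Its percentiles were 28.4 and 70.8 in WT no UV, 23.2 and 23.7 in WT UV, 62.2 and 62.3 in ASH1L-/- no UV, and 11.9 and 37.5 in ASH1L-/- UV. The groups overlapped through replicate 1 of WT no UV alone. The mean was 55.9 ± 18.8 without UV and 24.1 ± 10.5 after UV, and the difference was not called (limma adjusted p = 0.148). On centred log2 fold enrichment it was called lower after UV by limma, with a difference of -0.66 (adjusted p = 0.0388), while on log2 pileup over depth the difference was 0.14, in the opposite direction and not called (adjusted p = 0.815).

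At the start of PVT1 (chr8:127794526-128187101, plus strand, 59.1 kb from the start of MYC) there were 2 neighbouring shared sites. The upstream one, just before the start (chr8:127793776-127794282), had percentiles of 56.6 and 67.1 in WT no UV, 32.8 and 42.2 in WT UV, 66.0 and 72.6 in ASH1L-/- no UV, and 60.1 and 57.7 in ASH1L-/- UV. Each genotype was lower in percentile after UV, and the pooled groups overlapped. The downstream one (chr8:127794878-127796028), as joined over the lists, covers a PVT1 exon and the microRNA gene MIR1204. Its percentiles were 67.3 and 0.260 in WT no UV, 69.3 and 60.8 in WT UV, 56.4 and 20.0 in ASH1L-/- no UV, and 78.2 and 75.9 in ASH1L-/- UV. In both WT no UV libraries and replicate 2 of ASH1L-/- no UV its strongest region ended before MIR1204, with the summit 694 to 763 bases past the PVT1 start. In replicate 1 of ASH1L-/- no UV the summit was 1403 bases past it.

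The strongest region within 1 kb of the PVT1 start differed in place between libraries. In all 4 UV libraries it was the downstream one, with its summit 1361 to 1383 bases past the start. In 3 of the 4 unchallenged libraries it was the upstream one, with its summit 375 to 402 bases before the start. In replicate 1 of WT no UV it lay in the downstream site, as in the UV libraries, with its summit 738 bases past the start. Because the strongest region was taken wherever it lay, the promoter percentile was similar without and with UV, at 68.3 ± 2.95 and 71.0 ± 7.81 (p = 0.514, exact permutation test). It was 73.2 ± 5.30 in ASH1L-/- and 66.1 ± 3.69 in WT cells (p = 0.114, exact permutation test), and the UV differences of the genotypes, 7.75 and -2.16 points, did not separate (p = 0.229, exact permutation test).

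The downstream PVT1 site had a higher strongest signal after UV on the scales that keep the size of the signal. Its fold enrichment was 4.04 and 2.04 in WT no UV, 5.52 and 6.54 in WT UV, 2.70 and 2.91 in ASH1L-/- no UV, and 7.84 and 6.52 in ASH1L-/- UV. Its pileup over depth averaged 9.98 ± 3.57 without UV and 38.8 ± 9.70 after UV, a ratio of 3.89. Both WT no UV libraries and replicate 2 of ASH1L-/- no UV had their summit elsewhere in the site than the UV libraries. For them the comparison is between different positions within the site. On both scales all 4 UV libraries were above all 4 unchallenged ones, which held for 21.3% and 17.8% of the shared sites of the genome. In limma the log2 pileup over depth rose by 1.99 (SE 0.405, adjusted p = 5.13e-05), 1.51 above the median of all sites, and the centred log2 fold enrichment rose by 0.87 (SE 0.246, adjusted p = 0.0121). The percentile difference of 35.1 points (SE 14.4) was not called (adjusted p = 0.162), since the unchallenged libraries ranged from 0.260 to 67.3. With 1 library left out it ran from 18.3 points without replicate 2 of WT no UV (adjusted p = 0.291, limma) to 51.8 points without replicate 1 of that group (adjusted p = 0.0478, limma), the only omission under which it was called. The upstream site was called on none of these scales, with a limma adjusted p of 0.18 for the percentile and 0.213 for the pileup. Its UV differences ran in opposite directions, -17.4 points in percentile and 0.74 on log2 pileup over depth, where the median of all sites was 0.48.

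**Figure D3:**
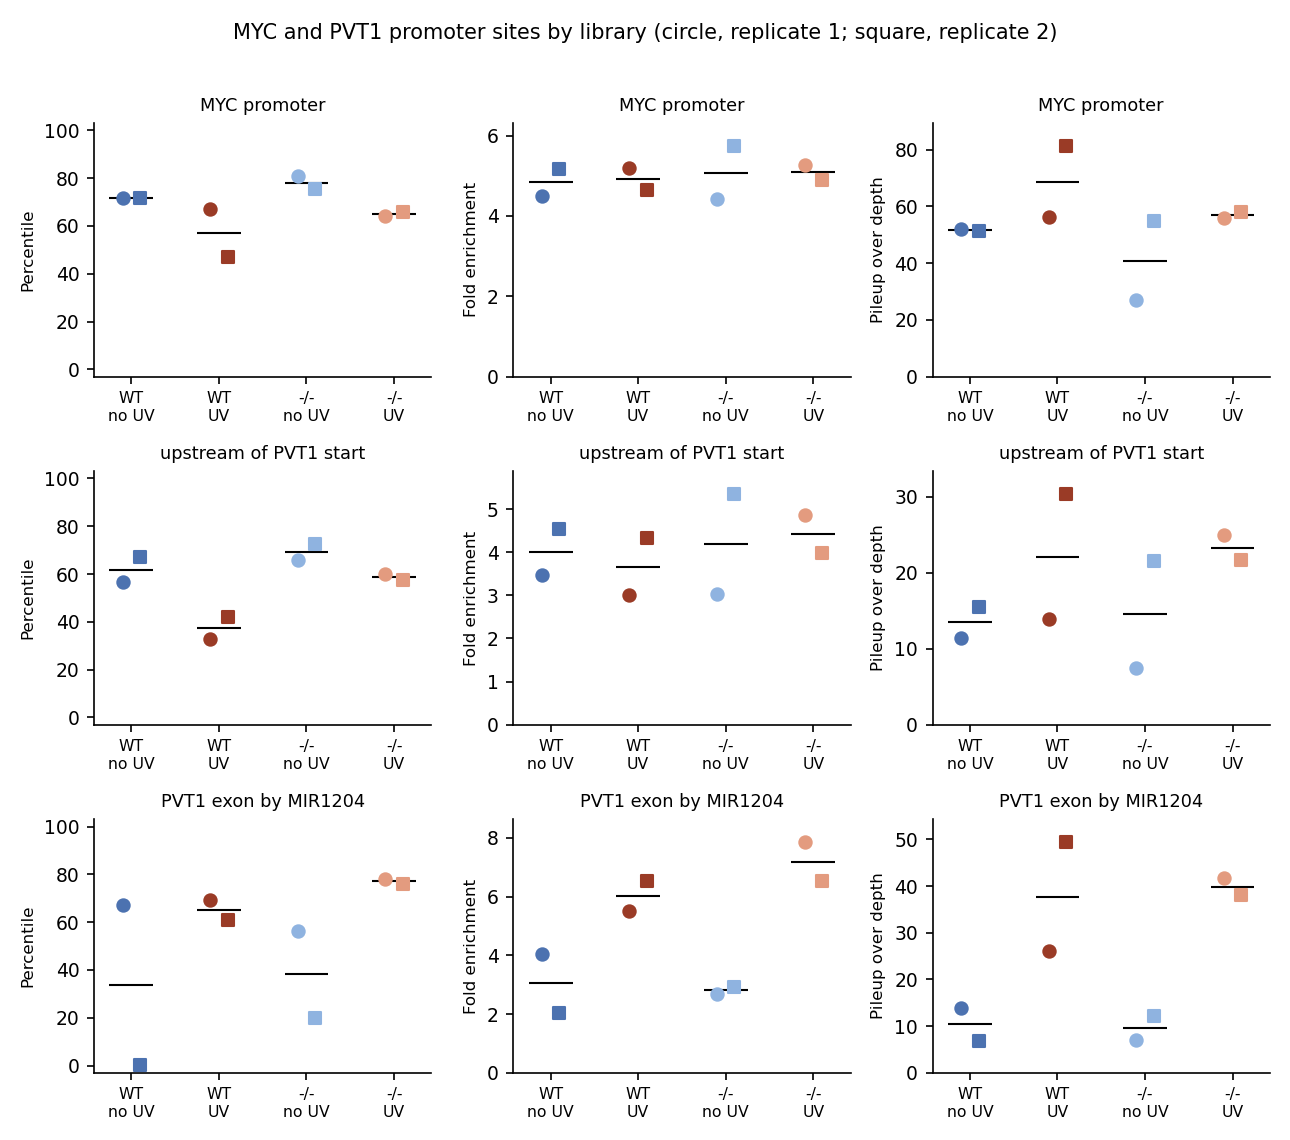
Percentile (left), fold enrichment (middle) and pileup over depth (right) of the MYC promoter site and of the sites just upstream and downstream of the PVT1 start, in each library (circle, replicate 1; square, replicate 2; line, group mean). At MYC the UV libraries are lower in percentile and higher in pileup, and at the downstream PVT1 site they are higher in fold enrichment and pileup in both genotypes.

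Across the 96 shared sites of the locus, limma on percentiles called 5 with UV, of which 2 rose and 3 fell. Over the genome it called 2828 of 60323 shared sites (4.69%), so the locus was close to the background. The UV libraries did not overlap the unchallenged ones at 13 of the 96 sites, against 18.3% of all shared sites. The balance of directions differed between scales: of the 17 calls on centred log2 fold enrichment (11.8% over the genome) 9 were higher and 8 lower, and of the 22 on log2 pileup over depth (15.9% over the genome) 20 were higher and 2 lower, while all shared sites gave 1169 higher and 1659 lower calls by percentile, 4488 and 2635 by fold enrichment, and 9063 and 558 by pileup. On the pileup scale the median of all shared sites was itself shifted up by 0.48. Single libraries also turned the balance on percentiles: without replicate 1 of ASH1L-/- no UV the calls were 3254 higher and 851 lower over the genome and 7 and 1 in the locus, and without replicate 1 of WT UV they were 647 and 3409 over the genome and 2 and 4 in the locus. Without either replicate of ASH1L-/- UV 0 sites were called in the locus and 0 in the genome, and the adjusted p of the 5 sites ranged from 0.0775 to 0.159 (limma). The differences at these sites stayed close to their full values without those libraries, at -46.9 and -43.8 points for the largest fall (-45.4 with all libraries) and 13.2 and 13.5 for the largest rise (13.3).

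The site with the largest fall lay 452 kb upstream of the MYC start in an intron of PCAT1 (chr8:127283216-127284080), a long non-coding RNA gene named for prostate cancer. Its percentiles were 86.2 and 98.2 in WT no UV, 60.2 and 52.4 in WT UV, 97.6 and 96.0 in ASH1L-/- no UV, and 45.1 and 38.9 in ASH1L-/- UV. Without UV it ranked among the strong sites of every list and after UV near the middle, with no overlap. It fell by 45.4 points (SE 5.58, limma adjusted p = 0.0231), its fold enrichment went from 12.3 ± 4.01 to 4.14 ± 0.974, and its pileup over depth from 41.97 ± 23.0 to 6.05 ± 1.53 (n = 4 each). The percentile fell by 35.9 points in WT and by 54.9 in ASH1L-/- cells, and the UV by genotype term was not called by limma.

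A site 395 kb upstream (chr8:127339915-127340561), in an exon of PCAT1 and introns of CASC8 and POU5F1B, moved the opposite way. It had percentiles of 85.7 and 90.6 in WT no UV, 95.0 and 95.9 in WT UV, 88.7 and 86.1 in ASH1L-/- no UV, and 97.7 and 99.3 in ASH1L-/- UV. Every UV library exceeded every unchallenged one, the rise was 9.20 points (SE 1.64, adjusted p = 0.0263, limma), and the pileup over depth went from 21.8 ± 8.20 to 111 ± 30.03, a ratio of 5.10. The call was lost without replicate 2 of WT UV (adjusted p = 0.0523, limma) or of ASH1L-/- no UV (0.0627), and, like the others, without either ASH1L-/- UV library, while the rise stayed between 7.98 and 10.4 points with any 1 library left out. The second rise was at an intergenic site 841 kb downstream of the MYC start (chr8:128576522-128577144). Its percentiles were 82.9 and 84.1 in WT no UV, 97.5 and 98.6 in WT UV, 83.2 and 82.1 in ASH1L-/- no UV, and 95.1 and 94.6 in ASH1L-/- UV, a rise of 13.3 points (SE 1.88, adjusted p = 0.0231, limma) with no overlap. Its pileup over depth was 15.5 ± 4.65 without UV and 54.5 ± 22.4 after UV. These sites and the falling one at 452 kb were the 3 that limma called in the same direction on percentiles, normal scores, log2 fold enrichment and log2 pileup.

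The other falls were at a pair of PVT1 intron sites. The site 119 kb from the MYC start (chr8:127853950-127854834) had percentiles of 90.8 and 88.9 in WT no UV, 75.2 and 64.4 in WT UV, 93.5 and 89.9 in ASH1L-/- no UV, and 73.1 and 79.0 in ASH1L-/- UV, and fell by 17.9 points (SE 4.08, adjusted p = 0.0422, limma). The site 176 kb away (chr8:127911097-127911920) had 88.1 and 88.9, 77.9 and 67.3, 92.3 and 82.1, and 60.2 and 63.6 in the same order, and fell by 20.6 points (SE 4.87, adjusted p = 0.0455, limma). Both calls held without replicate 1 of WT UV and were lost without any of the other libraries (adjusted p of 0.0677 to 0.159, limma), while the differences stayed between -20.5 and -15.2 points at 119 kb and between -23.3 and -17.9 at 176 kb. At neither site did the groups overlap in percentile. In pileup over depth they did: the means were 160 ± 53.9 and 222 ± 52.8 at 119 kb, where the direction was reversed, and 122 ± 52.2 and 97.6 ± 54.1 at 176 kb, and neither difference was called (adjusted p = 0.341 and 0.484, limma).

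**Figure D4:**
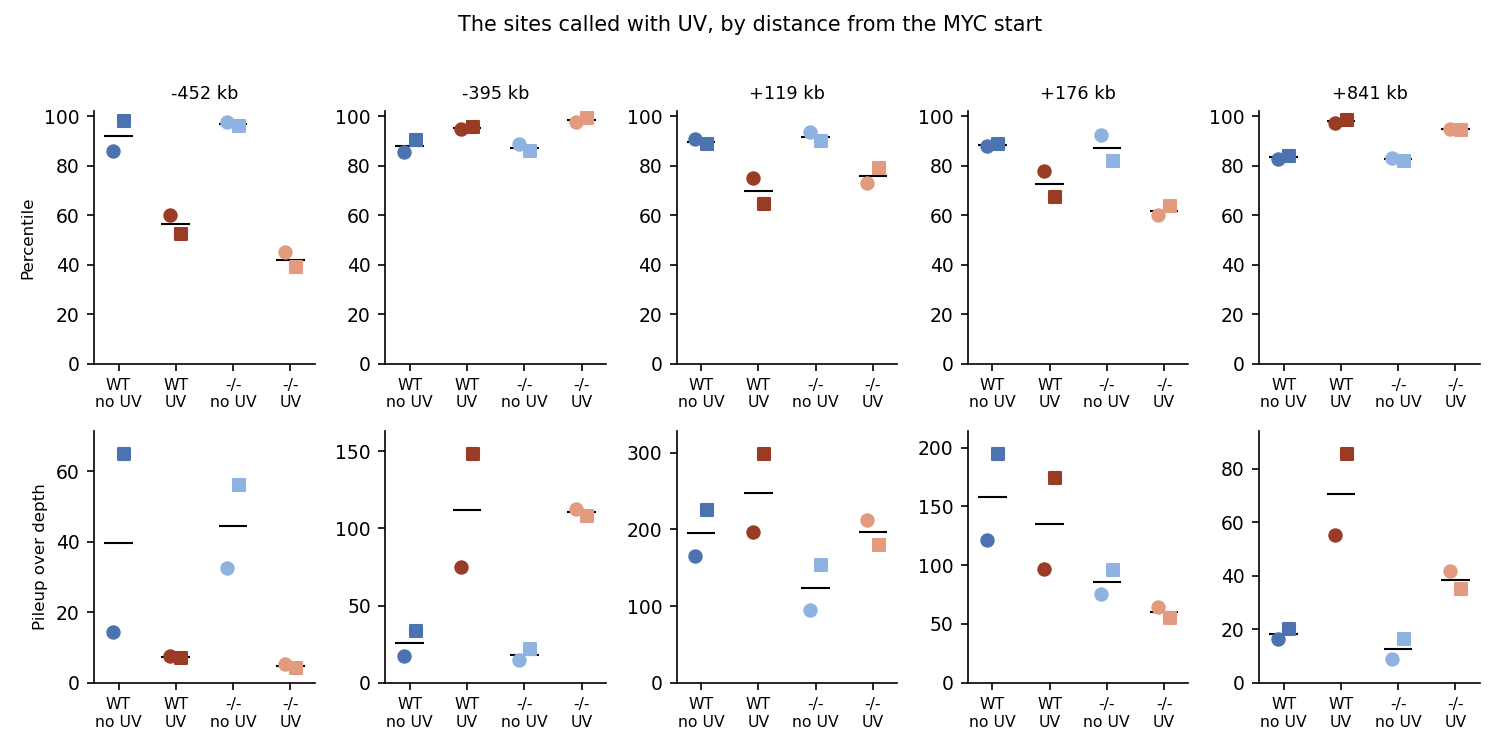
Percentile (top row) and pileup over depth (bottom row) in each library for the 5 sites that limma called with UV on percentiles, named by distance from the MYC start (circle, replicate 1; square, replicate 2; line, group mean). Percentiles of UV and no UV libraries are apart at all 5 sites, and pileups are apart at the 452 kb, 395 kb and 841 kb sites.

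No shared site of the locus was called with genotype or for a UV effect that differed by genotype, and neither was any of the 60323 sites of the genome (0% and 0%). Before adjustment 15 of the 96 sites had a limma p under 0.05 for genotype, against 9.28% of all shared sites, and 4 had one for the UV by genotype term, against 2.93%. The percentiles of ASH1L-/- and WT libraries were apart at 8 of the 96 sites, against 4.08% of all shared sites. On centred log2 fold enrichment 2 sites were called lower in ASH1L-/- cells (0.794% called over the genome) and on log2 pileup 1 (0.724%).

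Few sites were present in 1 condition and absent from the other. A region in all 4 UV lists and in no unchallenged list was found at 3 of the 986 sites of the locus (0.686% over the genome), and the reverse at 2 (0.0967% over the genome). The gains were in introns of CASC8 and PCAT1 428 kb upstream of the MYC start (percentiles of 33.7 to 65.5), of PVT1 440 kb downstream (6.03 to 10.5) and of LINC00824 767 kb downstream (26.9 to 54.1). The losses were over the exon of MIR1207, a microRNA gene within PVT1, 314 kb downstream (8.37 to 34.0), and in an intron of LINC00824 776 kb downstream (9.45 to 72.6). None of these regions reached the top quartile of its list, and the part of depth in their presence was not tested.

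A region in all 4 ASH1L-/- lists and in no WT list was found at 4 sites (0.186% over the genome), and the reverse at 0 (0.0768%). The strongest of them lay 423 kb upstream of the MYC start in introns of PCAT1 and CASC8 (chr8:127311564-127312264). It had percentiles of 91.8 and 90.2 without UV and 79.0 and 90.5 after UV, with fold enrichments of 7.55 to 11.0, and no region in any WT list. The other 3, in introns of PCAT1, PVT1 and CCDC26, had percentiles between 0.558 and 62.3.

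At the starts of the other listed genes of the locus, regions were often missing from some lists. Of the 17 genes on the list drawn up for the locus, 13 had an entry in the annotation. A region within 1 kb of the start was found in all 8 lists for PRNCR1 (percentiles of 84.5 to 98.9), MIR1208 (81.9 to 95.4) and MIR1204, whose region is the downstream PVT1 site. CASC11 and MIR1207 had a region at the start in 4 lists, CASC8, CCAT2, POU5F1B and LINC00824 in 3, MIR1205 and MIR1206 in 1, and CASC19 in 0, while the start of PCAT1 lies outside the window. The regions of CASC8 and CCAT2, non-coding genes of the colorectal cancer risk locus, came only from UV lists, at percentiles of 6.73 to 41.2 and 4.42 to 18.4, and those of MIR1207 only from unchallenged lists. Neither CASC8 nor CCAT2 had one in replicate 1 of WT UV, and how common such a pattern is over the genome was not counted.

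The 201 bases around the summit of each shared site were searched on both strands for words bound by factors of mesenchymal and stressed cells. TGANTCA, the AP-1 site, was present in 37 of the 96 sites of the locus (38.5%) and in 23.2% of all shared sites, and away from annotated starts in 40.5% and 29.0%. GGAATG, the core of TEAD sites, was present in 24.0% against 17.6%, and TGTGGT, the core of RUNX sites, in 22.9% against 17.0%. Away from annotated starts these shares were 27% against 20% for TEAD and 21.6% against 20% for RUNX. CACGTG, the E-box that MYC itself binds, was present in 1.04% against 3.70%, the CTCF motif in 1.04% against 1.14%, and a full p53 site with at most 3 mismatches in 2.08% against 0.953%. Away from annotated starts the E-box was present in 0% against 3.17%, the CTCF motif in 0% against 1.28% and the p53 site in 1.35% against 1.06%. Of the 10 strongest distal sites 6 held the AP-1 word, 5 the TEAD word and 5 the RUNX word. The sites at 841 kb and 176 kb held the AP-1 word, and those at 452 kb, 395 kb and 119 kb the TEAD word. None of the 4 sites found only in ASH1L-/- lists held any of the 6 motifs, and the downstream PVT1 site held the RUNX word alone.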

How the data were processed

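Omni-ATAC libraries of U2OS cells were processed by the authors after the ENCODE ATAC-seq pipeline. Per the study's methods and the submitters' processing notes, reads were trimmed (cutadapt 1.9.1), aligned to hg38 without chromosome Y (Bowtie2 2.4.5), filtered for mapping quality, duplicates and blacklisted regions (SAMtools 1.7, bedtools 2.29.2, Picard), and peaks were called for each library (MACS2 2.2.7.1). Whether read ends were shifted for the transposase is not given in the sources used here. The deposited lists hold a fold enrichment (a ratio to local background) and the −log10 of a p-value and q-value for each summit. A deposited display score was not used.

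Records with the same interval were merged into 1 region with its highest fold enrichment. Percentiles were average ranks within a list. Pileup and background were recovered from fold enrichment and −log10 p, and the lowest background of a list was taken as its depth, since the local background that MACS2 uses is never below the genome-wide mean. Regions of different lists that shared at least 1 base formed a site. Genes came from GENCODE 44 (hg38), and a promoter was the 1 kb on either side of a start, for PVT1 the start of the gene.

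Percentiles of the 60323 sites found in all 8 lists were fitted in limma 3.58.1 (R 4.3.3) with 4 group means, an intensity trend and Benjamini-Hochberg adjustment over all sites at 0.05. For the UV contrast, data were simulated over 60323 sites. Of the sites shifted by 20 points 28% were called, of those shifted by 40 points 54%, and 1.20% of the calls were false. Smaller shifts were not simulated, while the rises called in the locus were 9.20 and 13.3 points. Whether the simulated spread matched that of real sites high on the percentile scale was not tested. The simulated shares are therefore not error rates of the real calls. Single values were compared by 2-sided exact permutation tests, with 70 assignments of 8 libraries to sides of 4. Named sites were the MYC and PVT1 promoter sites, the 10 strongest distal sites, all sites present in only 1 condition and all sites called, and any other is said to have been chosen after its values were seen. The members and lists, and the motifs, were chosen with earlier results of these data known. Alternatives are given at the end. Replicate numbers did not pair the samples: deviations of same-numbered libraries from their group means correlated between -0.079 and 0.137, and 1 of 6 pairs of groups exceeded 0.1. Read counts per region were not used here, so intervals from counting error are not given. No sequence is printed for chromosome 8.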

Additional observations from a re-analysis of the deposited data

How the results depend on the processing

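Several results differed between scales. For the MYC promoter the UV difference in percentile fell by 13.9 points. It was 0.48 on log2 pileup over depth (exact permutation p = 0.0286), the opposite direction, -0.32 on centred log2 fold enrichment (exact p = 0.0857) and -0.49 as a percentile of pileup (exact p = 0.429), and -19.0 to -8.83 with 1 library left out, where 5 of the 8 exact p were above 0.05. The PVT1 UV difference of 2.79 points became 1.47 on log2 pileup and 8.47 points as a percentile of pileup, each with exact p = 0.0286. With any annotated PVT1 start in place of the gene start, the PVT1 differences became 0.366 points with UV, 2.38 with genotype (from 7.05) and -2.01 for UV by genotype (from -9.91). Genotype differences turned from 7.19 to -0.34 at MYC and from 7.05 to -0.0268 at PVT1 on log2 pileup, and the UV by genotype difference at MYC from -1.61 to 0.0019 on normal scores and 0.0493 as a percentile of pileup (-11.8 to 8.55 with 1 library left out). None of those was past 0.05.

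The share of regions in the locus differed with UV by -0.02 on the log2 scale and by 0.0172 as a share of chromosome 8 (-0.0738 to 0.0341 with 1 library left out). It was -0.123 for the number of regions, -0.11 and -0.128 at q below 0.05 and of 0.01 or below, and -0.0713 for bases covered. The genotype difference of 0.14 ranged from 0.0284 in the top quartile to 0.223 for the number of regions, and with 1 library left out from 0.0856 to 0.193, the latter without replicate 1 of WT UV (exact p = 0.0381). The UV by genotype difference of 0.07 was -0.0536 for the raw number of regions, -0.0206 at q below 0.05, and -0.0392 to 0.177 with 1 library left out.

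The 5 sites called with UV became 2 without an intensity trend, 11 on normal scores, 17 on log2 fold enrichment, 22 on log2 pileup, and 0 to 8 with 1 library left out (0 without either ASH1L-/- UV library, 2 and 8 without replicate 2 and 1 of ASH1L-/- no UV, 3 without replicate 2 of WT no UV or of WT UV). The genotype calls were 2 on log2 fold enrichment, 1 on log2 pileup and 0 in each other fit, although over the genome 204 sites were called with genotype without replicate 2 of WT no UV and 56 without replicate 1 of ASH1L-/- no UV. Over the genome, UV calls went from 2828 of 60323 shared sites to 1280 without an intensity trend and 6400 on normal scores. They were 7123 on log2 fold enrichment, 9621 on log2 pileup and 1953 with the replicate number as a block. The 119 kb site reversed to 0.52 on log2 pileup. With the replicate number as a block, 3 sites were called with UV and the MYC difference had an exact p of 0.0556, the smallest that pairing allows. The 5 sites present in only 1 UV condition were 3 with UV and 2 without. When regions had to cover 50% of a site these became 8 and 0, so neither loss was kept. Over the genome the counts went from 3758 and 530 to 5078 and 329. That alternative was chosen after seeing the data, like the ranking by pileup. With 1 library left out the 5 became 5 to 14 (14 without replicate 1 of WT UV, 11 without replicate 2 of ASH1L-/- UV, 9 without replicate 1 of ASH1L-/- no UV). The 4 found in 1 genotype became 1 at q of 0.01 or below, and 4 to 7 with 1 library left out (7 without replicate 1 of ASH1L-/- UV). The planned rule of 50% overlap changes nothing, because a region lies wholly inside its site. The cause of these changes was not tested.

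The lists hold 2 libraries per group and no read counts, so the sampling error of a weak region is unknown, and an absent region says only that it did not pass the peak caller.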

Other observations

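A stretch of the gene desert from 452 kb to 395 kb upstream of MYC, within PCAT1 and CASC8 and singled out after its values were seen, held several of the sites described above: the site that fell most after UV, the strongest upstream site at 440 kb, a site present only after UV at 428 kb, the strongest site present only in ASH1L-/- lists at 423 kb, and a site that rose after UV at 395 kb.

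Other sites were called with UV on normal scores, log2 fold enrichment and log2 pileup, but not on percentiles, and were likewise chosen after their values were seen. A site 600 kb upstream of the MYC start, in introns of PCAT1 and CASC19, had a mean percentile of 31.4 ± 21.6 without UV and 74.2 ± 3.13 after UV (limma adjusted p = 0.0508 on percentiles and 0.00186 on log2 pileup). A site over PRNCR1, 654 kb upstream, was higher after UV by 7.09 points (limma adjusted p = 0.0848 on percentiles and 0.00138 on log2 pileup). A site 1116 kb downstream in CCDC26 had means of 75.8 ± 14.0 and 94.4 ± 4.77 (limma adjusted p = 0.0584 and 0.000216), and an intergenic site 467 kb downstream went the other way, from 88.2 ± 6.79 to 59.0 ± 17.3 (limma adjusted p = 0.0537 and 0.0154). In all, 29 of the 96 shared sites were called with UV on at least 1 of the 4 scales and 3 on all 4 in the same direction. How many of all shared sites met either rule was not counted. Over the genome percentiles called 2828 of 60323 shared sites, normal scores 6400, log2 fold enrichment 7123 and log2 pileup 9621.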
